A study of Mus musculus with 6 samples.

Results

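The Notch receptors, ligands and targets are 10 genes that were selected by symbol from the 46603 gene identifiers of the count files. They comprise the 4 receptors Notch1, Notch2, Notch3 and Notch4, the 3 ligands Jag1, Jag2 and Dll1, and the 3 target genes Hes1, Hey1 and Heyl, each with 1 identifier. RNA was sequenced from neurosphere-derived EGCs (enteric glial cells, which surround the neurons of the gut), in a study of how EGCs act on monocytes and macrophages. The whole intestine of embryonic day 14.5 C57BL/6J mice was the source, and its cells were expanded for 1 week as neurospheres, floating clusters of neural progenitors, with EGF (40 ng/ml) and FGF (20 ng/ml). They were then plated and grown to confluence in medium with 10% serum, which holds for every culture. Of the 6 cultures, 3 were controls, labelled NIL for treatment, and 3 received lipopolysaccharide (LPS, from the outer membrane of Gram-negative bacteria) at 100 ng/ml for 12 h. The labels do not say whether the numbered cultures came from separate embryos or preparations, so the p-values measure the spread between these cultures, which may be technical.

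Notch receptors are transmembrane proteins that are activated by ligands on neighbouring cells. Ligand binding and endocytosis expose the receptor to a metalloprotease and then to the gamma-secretase complex, which releases the intracellular domain. In the nucleus this domain joins the DNA-binding protein RBPJ and Mastermind coactivators and switches on target genes, among them the transcriptional repressors of the Hes and Hey families. In the developing gut, Notch signalling is known for keeping neural crest-derived progenitors undifferentiated and for promoting glial over neuronal fate.

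The libraries held 18775316 to 23664312 counts in genes. The glial gene Sox10 was present in all 6 libraries at 73.8 to 100.7 CPM (counts scaled to the effective library size), whereas the 5 epithelial markers together reached at most 0.988 CPM. Fibroblast-type and macrophage transcripts were also abundant. The 7 mesenchymal markers summed to between 14819 and 15889 CPM. The 12 macrophage markers all passed the filter, with 1 called higher and 0 lower, and summed to 4107, 5321 and 12623 CPM in control replicates 1, 2 and 3 and to 4044, 5240 and 20205 CPM in LPS replicates 1, 2 and 3, so that both libraries numbered 3 held the most. These were also the libraries that stood apart within their group. The mean chi-square per gene, which is about 1 where libraries differ by sampling noise alone, was 7.16 between control replicates 1 and 2 and 7.42 between LPS replicates 1 and 2, but 67.5 to 144.2 in the pairs with a replicate 3. Among the Notch members, 8 of 10 had their highest control value in control replicate 3, and 5 of 10 their highest LPS value in LPS replicate 3. In such bulk RNA, fewer cells of a type and less RNA per cell cannot be told apart.

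Within the family, the shares of Notch2 and Notch3 in the summed receptor level did not overlap between the groups. The exact permutation test of these shares gave p = 0.1, the smallest that 3 against 3 cultures allow. Notch2 and Notch4 rose and Notch3 fell after LPS, while the 3 target genes all had lower mean values without passing the test, and the ligands Jag1 and Dll1 overlapped between the groups. Called genes are those with an adjusted p under 0.05 in the edgeR quasi-likelihood test, with adjustment over all 15226 genes that passed the count filter. All 10 members passed this filter. Of these, 2 were called higher and 1 lower, 3 of 10 in all, beside a background of 15.8% of all genes tested (9.09% higher and 6.71% lower). The median log2 fold change of the members was -0.29, beside -0.02 over all genes. Leaving out a library changed the background itself, to 4.28% of all genes called without control replicate 1, 3.15% without control replicate 2, 14.2% without control replicate 3, 5.42% without LPS replicate 1, 4.41% without LPS replicate 2 and 21.7% without LPS replicate 3. Without replicate 3 of both groups, a fit chosen after seeing the data, it was 43.0%, and 8 of 10 members were called. In 6 of the 10 members the 3 LPS libraries did not overlap the 3 controls, 2 higher and 4 lower, where 38.7% of all genes showed such a separation (19.3% higher and 19.4% lower).

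**Figure D1:**
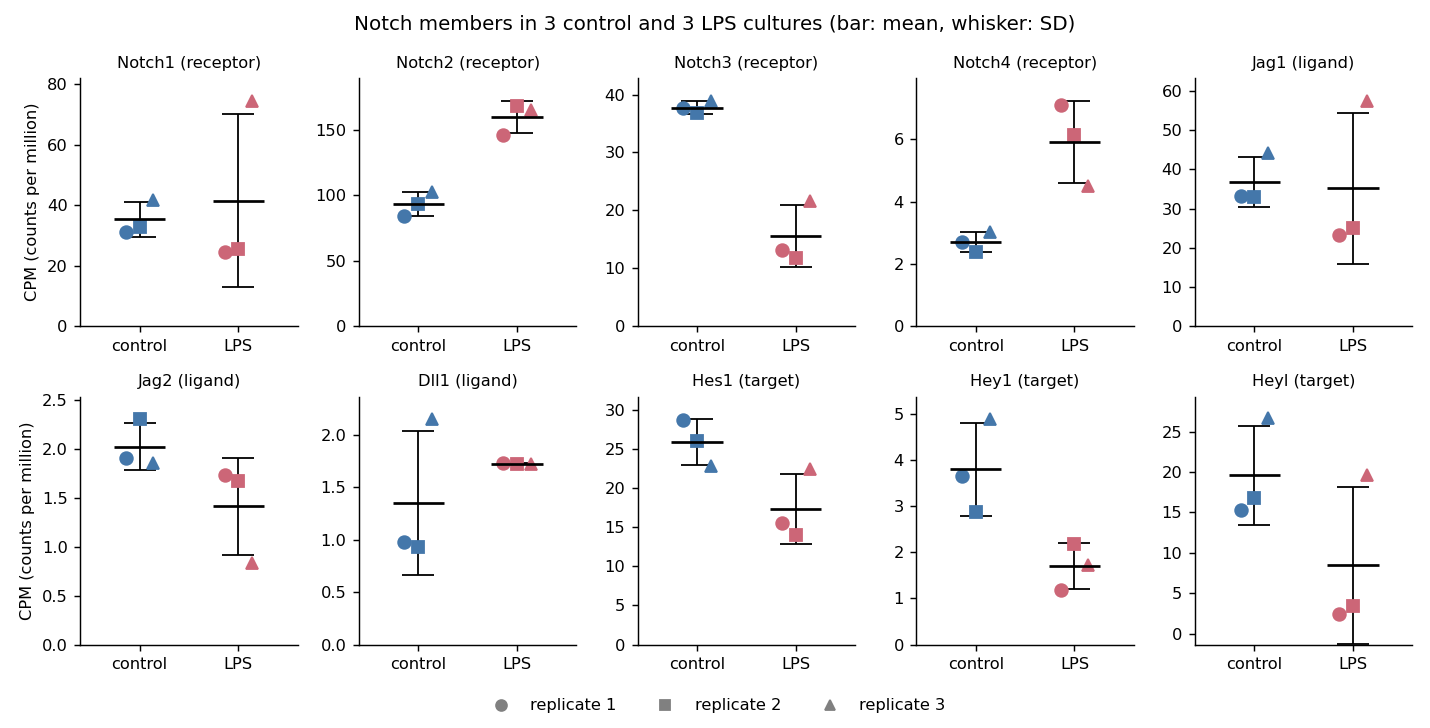
CPM of the 10 Notch members (vertical axes, each from 0 or just below) in control and LPS cultures, with 1 symbol per library by replicate number, a bar for the mean and whiskers for the SD (n = 3). Notch2 and Notch4 lie higher and Notch3, Hes1, Hey1 and Jag2 lower in every LPS library than in every control, and LPS replicate 3 (triangle) lies far above the other LPS libraries for Notch1, Jag1 and Heyl.

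Receptors were examined first. Notch2 (ENSMUSG00000027878, chromosome 3, 98013527 to 98150361, GRCm38, plus strand) was the receptor with the highest level, with 1986 to 3157 counts per library. It was at 84.2, 92.8 and 102.6 CPM in control replicates 1, 2 and 3 and at 145.8, 168.2 and 165.2 CPM in LPS replicates 1, 2 and 3. All LPS libraries were thus above all controls, and replicate 3 was in keeping with the others. The mean went from 93.2 ± 9.22 to 159.8 ± 12.2 CPM (SD, n = 3 each), which is 1.71-fold higher, with a log2 fold change of 0.78 (SE 0.10, edgeR adjusted p = 0.00862). The call was lost only when control replicate 2 was left out (log2 fold change 0.78, adjusted p = 0.0611). It held with the other 14 alternatives, in which the log2 fold change lay between 0.62 and 0.87.

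Notch4 (ENSMUSG00000015468, chromosome 17, 34564268 to 34588503, plus strand), a receptor best known from endothelial cells, was much scarcer, with 54 to 144 counts per library. It was at 2.71, 2.39 and 3.02 CPM in control replicates 1, 2 and 3 and rose to 7.12, 6.13 and 4.50 CPM in LPS replicates 1, 2 and 3. The groups did not overlap, although LPS replicate 3 lay lower than the other LPS libraries. The mean went from 2.71 ± 0.313 to 5.92 ± 1.32 CPM (SD, n = 3 each), 2.19-fold higher (log2 fold change 1.13, SE 0.23, edgeR adjusted p = 0.0270). The call was lost when replicate 1 or replicate 2 of either group was left out, with adjusted p between 0.0916 and 0.121 and log2 fold changes between 0.97 and 1.14. Of the 8 endothelial markers, 4 passed the filter and 0 were called. Their sum was 19.0 to 24.9 CPM in control and 15.3 to 22.6 CPM in LPS, with 15.3, 15.3 and 22.6 CPM in LPS replicates 1, 2 and 3. In single libraries Tie1 and Cldn5 had at most 8 and 5 counts, Pecam1 at most 117, Kdr at most 331 and Emcn at most 306. The log2 fold changes of the 4 tested were 1.80 for Cdh5, 0.98 for Pecam1, -0.47 for Kdr and -0.90 for Emcn, with edgeR adjusted p between 0.161 and 0.628. The part of endothelial cells or macrophages in the result for Notch4 was not tested.

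Notch3 (ENSMUSG00000038146, chromosome 17, 32120820 to 32166852, minus strand), which is characteristic of vascular smooth muscle cells and pericytes, was the member called lower. It was at 37.6, 36.7 and 38.9 CPM in control replicates 1, 2 and 3, a narrow range, and at 13.1, 11.8 and 21.6 CPM in LPS replicates 1, 2 and 3. The highest LPS value was still well under the lowest control. The mean fell from 37.7 ± 1.08 to 15.5 ± 5.35 CPM (SD, n = 3 each), 2.44-fold lower (log2 fold change -1.28, SE 0.24, edgeR adjusted p = 0.0220). The call was lost when replicate 1 or replicate 2 of either group was left out, with adjusted p between 0.0744 and 0.0902 and log2 fold changes between -1.30 and -1.12, whereas leaving out LPS replicate 3 gave 0.000667 (log2 fold change -1.60). Markers of the cells in which Notch3 is best known were examined beside it. Of 8 smooth muscle genes, 7 were called lower, and their sum was 2349 to 2599 CPM in control and 982, 949.6 and 683 CPM in LPS replicates 1, 2 and 3, with none at 0. Within LPS, replicate 3 was thus lowest for this sum and highest for Notch3, and of the 8 genes 7 were lowest there and 1, Des, was highest there. Of 7 mural cell markers, 6 were tested and 0 called, and Higd1b was at 0 counts in every library. Their sum was 619 to 677 CPM in control and 468, 479 and 648 CPM in LPS replicates 1, 2 and 3. Within LPS, replicate 3 was thus highest for this sum, as it was for Notch3. Among the tested markers, Cspg4, Pdgfrb, Kcnj8 and Abcc9 were highest there, and Rgs5 and Mcam were lowest there. The part of these cells in the result for Notch3 was not tested.

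Notch1 (ENSMUSG00000026923, chromosome 2, 26457903 to 26516663, minus strand), the receptor with the broadest known role in progenitor maintenance, was at 31.1, 32.8 and 41.8 CPM in control replicates 1, 2 and 3 and at 24.6, 25.5 and 74.4 CPM in LPS replicates 1, 2 and 3. LPS replicates 1 and 2 were below all controls and LPS replicate 3 was above all of them, 2.98-fold over the mean of the other LPS libraries. No difference was called over all 6 libraries (log2 fold change 0.24, 95% interval -0.90 to 1.37, edgeR adjusted p = 0.773). The sign depended on LPS replicate 3, since without it the log2 fold change was -0.50 (adjusted p = 0.0779). Among the LPS libraries each macrophage marker was also highest in replicate 3. Over all 6 libraries, however, Cd68, Mrc1 and Cx3cr1 were highest in control replicate 3. They were at 689, 752 and 48.1 CPM there, against 407, 131 and 9.53 CPM in LPS replicate 3. The part of macrophages in the Notch1 value was not tested.

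**Figure D2:**
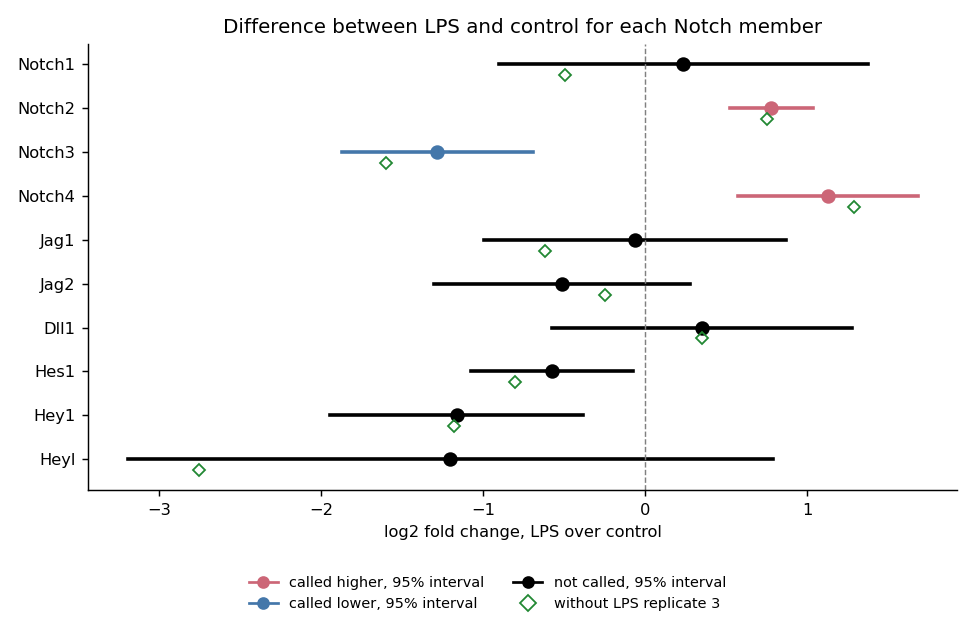
Log2 fold change of LPS over control (horizontal axis) for each Notch member, with the 95% interval from the edgeR fit as a line and the value without LPS replicate 3 as an open diamond. The intervals of Notch2, Notch4, Notch3, Hes1 and Hey1 exclude 0, and without LPS replicate 3 Notch1 moves from 0.24 to -0.50 and Heyl from -1.20 to -2.75.

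To see how the regions upstream of the 3 called receptors differ, the sequence from 250 to 31 bases before the RefSeq transcription start (GRCm38.p6) was taken for each. They are written 5′ to 3′ on the strand of the gene, with matches to the NF-κB consensus in capitals, a motif chosen because NF-κB is the main transcription factor activated by LPS. Notch2 lies at chr3:98013288-98013507 on the plus strand, Notch3 at chr17:32166921-32167140 on the minus strand and Notch4 at chr17:34564045-34564264 on the plus strand.
Notch2: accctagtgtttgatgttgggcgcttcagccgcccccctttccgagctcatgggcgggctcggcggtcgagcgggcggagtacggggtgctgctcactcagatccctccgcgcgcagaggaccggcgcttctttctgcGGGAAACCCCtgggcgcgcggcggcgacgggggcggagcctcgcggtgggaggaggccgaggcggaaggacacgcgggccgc
Notch3: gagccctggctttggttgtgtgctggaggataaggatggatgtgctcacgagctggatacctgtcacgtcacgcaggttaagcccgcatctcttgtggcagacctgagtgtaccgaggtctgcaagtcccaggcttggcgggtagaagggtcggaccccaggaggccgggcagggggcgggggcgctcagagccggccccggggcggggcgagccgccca
Notch4: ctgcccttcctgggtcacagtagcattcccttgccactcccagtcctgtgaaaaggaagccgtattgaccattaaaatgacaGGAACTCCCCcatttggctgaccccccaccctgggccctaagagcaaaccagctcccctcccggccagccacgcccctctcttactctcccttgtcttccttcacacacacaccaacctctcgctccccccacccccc
Notch2, which rose, had 1 match that began 112 bases before the start, and Notch4, which also rose, had 1 match on the opposite strand that began 168 bases before it. Notch3, which fell, had none in this window. Over 32851 RefSeq promoters of the same length, 6.34% held such a match on either strand. The letters TGGGAA, the core that RBPJ binds, were searched on both strands as well and were absent from all 3 windows, while 19.4% of the promoters held them. An AP-1 sequence, TGANTCA, was found in none of the 3 windows, against 6.12% of the promoters, although Notch4 had 1 that began 4 bases before its start and so outside the stretch shown. Promoter entries were found for 7 of the 10 members, and Hes1, Hey1 and Heyl were not among them. Of the other members with an entry, Dll1, which was not called, had over its 2 entries 1 NF-κB match that began 81 bases before its start and 1 TGANTCA that began 109 bases before it, and Notch1, Jag1 and Jag2 had no match to these motifs. A match is a description of the letters and not evidence of binding.

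Because receptors differ in length, their balance was compared as CPM per kilobase of exon. Notch2 made up 52.1%, 54.7% and 53.9% of the summed receptor level in control replicates 1, 2 and 3 but 76.2%, 79.6% and 64.4% in LPS replicates 1, 2 and 3. Notch3 made up 31%, 28.8% and 27.3% in the controls and 9.12%, 7.41% and 11.2% in the LPS libraries. The shares of both receptors were thus separated between the groups in every library. On average, the share of Notch2 differed by 19.8 percentage points and that of Notch3 by -19.8 points. The shares add up to a whole, so a gain of Notch2 by itself lowers the share of Notch3. As levels, Notch2 went from 8.64 to 14.8 and Notch3 from 4.67 to 1.9 CPM per kilobase. The shares rest on the same counts as the calls above. Notch1 held 15.3% ± 1.18 in control and 13.6% ± 7.26 in LPS (SD, n = 3 each), with 22.0% in LPS replicate 3 against 9.72% and 9.13% in the others. Notch4 went from 2.08% ± 0.185 to 3.73% ± 1.32 (SD, n = 3 each). This separation for Notch4 was narrow, since LPS replicate 3 was at 2.35% and control replicate 1 at 2.25%, and it was lost per coding length and with no length correction. The ratio of Notch2 to Notch3 was 1.68, 1.90 and 1.98 in control replicates 1, 2 and 3 but 8.35, 10.7 and 5.73 in LPS replicates 1, 2 and 3. For the shares of Notch2, Notch3 and Notch4 and for this ratio the exact two-sided permutation test gave p = 0.1, the smallest that 3 against 3 cultures allow, and for the share of Notch1 p = 0.8. The summed receptor level was 16.1 ± 1.37 in control and 20.4 ± 3.09 CPM per kilobase in LPS (SD, n = 3 each), also with an exact permutation p of 0.1.

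**Figure D3:**
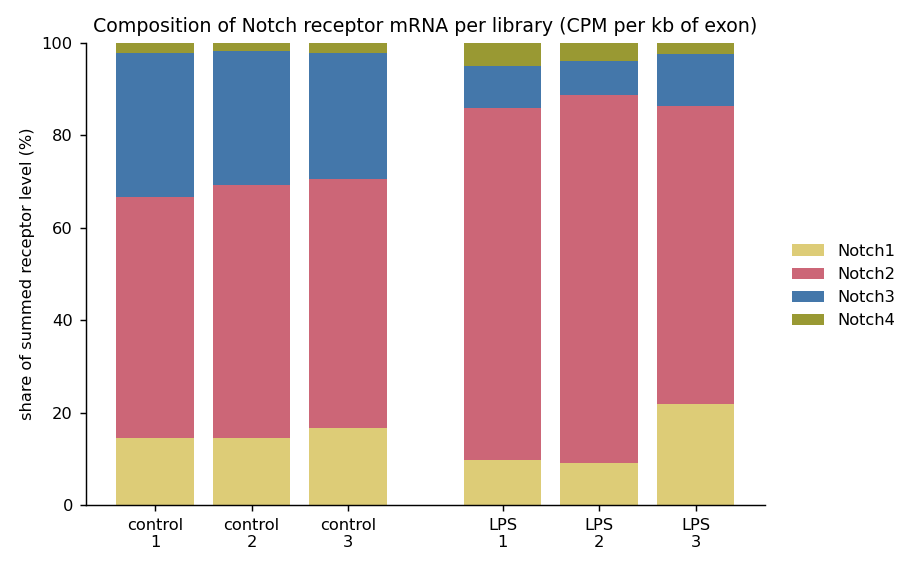
Share of each Notch receptor in the summed receptor level (percent, vertical axis, CPM per kilobase of exon) in each of the 6 libraries. The Notch2 part is 52.1% to 54.7% in the controls and 64.4% to 79.6% in the LPS libraries, and the Notch3 part shrinks from 27.3% or more to 11.2% or less.

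Ligands were examined next. Jag1 (ENSMUSG00000027276, chromosome 2, 137081456 to 137116644, minus strand), which encodes the Notch ligand Jagged1, was by far the most abundant of the 3. It was at 33.1, 32.9 and 44.3 CPM in control replicates 1, 2 and 3 and at 23.1, 24.9 and 57.5 CPM in LPS replicates 1, 2 and 3. As for Notch1, LPS replicates 1 and 2 were below all controls and LPS replicate 3 above all of them. The log2 fold change was -0.06 (95% interval -1.0 to 0.87, edgeR adjusted p = 0.928). Without LPS replicate 3 it was -0.62 (adjusted p = 0.0548), and its sign turned to 0.11, 0.17 and 0.13 without control replicate 3, LPS replicate 1 and LPS replicate 2. Among the LPS libraries each macrophage marker was highest in the same library as Jag1. Over both groups, however, Cd68, Mrc1 and Cx3cr1 were highest in control replicate 3. The part of macrophages in the Jag1 value was not tested.

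Jag2 (ENSMUSG00000002799, chromosome 12, 112907819 to 112929776, minus strand), the other Jagged ligand, was near the limit of what this depth resolves, with 16 to 52 counts per library. It was at 1.91, 2.30 and 1.86 CPM in control replicates 1, 2 and 3 and at 1.73, 1.67 and 0.837 CPM in LPS replicates 1, 2 and 3. The LPS libraries were all below the controls, by a small margin in replicates 1 and 2, and the difference was not called (log2 fold change -0.52, 95% interval -1.31 to 0.28, edgeR adjusted p = 0.331). It was -0.25 without LPS replicate 3 and lay between -0.69 and -0.25 over the fits without a single library. Dll1 (ENSMUSG00000014773, chromosome 17, 15367354 to 15376872, minus strand), a Delta-type ligand, was similarly scarce with 21 to 52 counts per library. Its values were 0.975, 0.930 and 2.15 CPM in control replicates 1, 2 and 3 and 1.73 CPM in each of the LPS libraries. The controls spanned the LPS values, and the log2 fold change of 0.35 (95% interval -0.57 to 1.28) was not called (edgeR adjusted p = 0.573). It was 0.87 without control replicate 3 (adjusted p = 0.0671), 0.17 without control replicate 1 and 0.15 without control replicate 2. A transcript on the opposite strand, A930024N18Rik, shares 867 exonic bases with Dll1 and had 27 counts over all 6 libraries, so that low counts of Dll1 are uncertain if strand was not used in counting. The summed ligand level was 6.92 ± 1.26 in control and 6.65 ± 3.25 CPM per kilobase in LPS (SD, n = 3 each, exact permutation p = 1).

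The target genes, which encode basic helix-loop-helix repressors, were lower in LPS by mean in all 3 cases, and 0 of 3 were called. Hes1 (ENSMUSG00000022528, chromosome 16, 30064384 to 30067796, plus strand), which restrains neuronal differentiation, was at 28.7, 26.0 and 22.8 CPM in control replicates 1, 2 and 3 and at 15.6, 14 and 22.5 CPM in LPS replicates 1, 2 and 3. The groups did not overlap, but LPS replicate 3 was almost at the level of control replicate 3. The log2 fold change was -0.58 (SE 0.20, 95% interval -1.07 to -0.08), with an edgeR p of 0.0302 before and 0.113 after adjustment. Hes1 was called without LPS replicate 3 (log2 fold change -0.81, adjusted p = 0.0146) and when only library size was used for scaling (log2 fold change -0.74, adjusted p = 0.0486).

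Hey1 (ENSMUSG00000040289, chromosome 3, 8663359 to 8667256, minus strand) had 24 to 118 counts per library. It was at 3.64, 2.88 and 4.88 CPM in control replicates 1, 2 and 3 and at 1.19, 2.17 and 1.73 CPM in LPS replicates 1, 2 and 3. Every LPS library was below every control, and replicate 3 did not stand out within the LPS group. The log2 fold change of -1.16 (SE 0.32, 95% interval -1.95 to -0.38) missed the threshold (edgeR adjusted p = 0.0601). DESeq2 called it (log2 fold change -1.16, adjusted p = 0.0130), as did edgeR with upper-quartile factors (-1.27, adjusted p = 0.0433) and with library size alone (-1.32, adjusted p = 0.0350), where 24.6%, 17.3% and 20.0% of all genes were called.

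Heyl (ENSMUSG00000032744, chromosome 4, 123233556 to 123249875, plus strand), a Hey family member found with Notch3 in vascular mural cells, varied the most between the LPS replicates relative to its mean. It was at 15.3, 16.8 and 26.6 CPM in control replicates 1, 2 and 3 and at 2.42, 3.40 and 19.7 CPM in LPS replicates 1, 2 and 3. LPS replicates 1 and 2 were far below all controls, whereas LPS replicate 3 lay within the control range at 6.76-fold the mean of the other LPS libraries. The log2 fold change was -1.20 (SE 0.81, 95% interval -3.19 to 0.79, edgeR adjusted p = 0.362). Without LPS replicate 3 it was -2.75 (adjusted p = 0.00655). Within each number the LPS value of Heyl was lower, and the replicate block gave a log2 fold change of -1.69 (adjusted p = 0.0623). Of the 6 mural markers tested, 4 were highest in LPS replicate 3 among the LPS libraries (Cspg4, Pdgfrb, Kcnj8 and Abcc9) and 2 were lowest there (Rgs5 and Mcam), a split seen after their values were known. Cspg4 had 35.4, 31.5 and 159.3 CPM in LPS replicates 1, 2 and 3, whereas Rgs5 had 33.4, 33.1 and 10.7 CPM in the same libraries. The sum of the mural markers was 468, 479 and 648 CPM in LPS replicates 1, 2 and 3. The part of mural cells or macrophages in the Heyl values was not tested. The summed level of the 3 targets was 17.7 ± 0.649 CPM per kilobase in control and 10.7 ± 4.08 in LPS (SD, n = 3 each), with values of 8.48, 8.20 and 15.4 in LPS replicates 1, 2 and 3 that were all under the lowest control of 16.95 (exact permutation p = 0.1, the smallest possible).

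The members were next ordered by level at rest, as CPM per kilobase of exon in the 3 controls. Hes1 ranked first at 12.7 ± 1.44, followed by Notch2 at 8.64 ± 0.855, Jag1 at 6.31 ± 1.11 and Notch3 at 4.67 ± 0.134 (SD, n = 3 each). Each of these was separated from the next in all control libraries except that Notch3 overlapped with Heyl, at 3.83 ± 1.20 (SD, n = 3). Notch1 followed at 2.48 ± 0.405 and Hey1 at 1.16 ± 0.309 (SD, n = 3 each), each separated from its neighbours. Notch4, Dll1 and Jag2 came last at 0.336, 0.320 and 0.290, with overlapping libraries. Among all tested genes with a known exon length, Hes1 lay at percentile 75.1 and Notch2 at 65.3 in control, while Notch4, Dll1 and Jag2 were at or below percentile 8.31. In LPS the first place passed to Notch2, at 14.8 ± 1.13 (SD, n = 3) and percentile 76.4, separated from Jag1 and Hes1 in all libraries, while Hes1 lay at 8.51 ± 2.21 (SD, n = 3), overlapping with Jag1 at 6.04 ± 3.32 (SD, n = 3). Ranks of 7 members changed when coding length replaced exon length, with Hes1 still first in control. With no length correction Notch2 was first in both groups and Hes1 was at rank 5 in control, so that the change of first place holds only per length.

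Finally, 56 other genes of the pathway were examined by role. Of these, 51 passed the filter, and 8 were called higher and 4 lower, beside the background of 15.8% given above. The median log2 fold change of the 51 was -0.03. With the replicate number as a block, 10 were called higher and 8 lower, beside a background of 30.3% of all genes. Of the 12 calls, Dtx3l held in all 6 fits that left out a library, Rbpj and Adam17 in 5 and Aph1c in 4. The other 8 held in few of these fits, Ncstn, Aph1b, Snw1 and Fbxw7 in 2 of 6 and Furin, Kdm5a, Neurl1b and Epn2 in 1 of 6, with adjusted p up to 0.173. Scaling bore on 4 of these, since Furin, Kdm5a and Epn2 were not called with either upper-quartile factors or library size alone, and Ncstn not with the latter. Furin and Kdm5a were also not called with no filter on low counts, and Aph1b not with limma-voom. The 5 genes that did not pass were Dll3, Dll4, Hes5, Hes7 and Nrarp, each with at most 16 counts in a library. Hes5, a target of Notch in the brain, had at most 1 count, and Nrarp, a feedback inhibitor induced by Notch, at most 5.

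**Figure D4:**
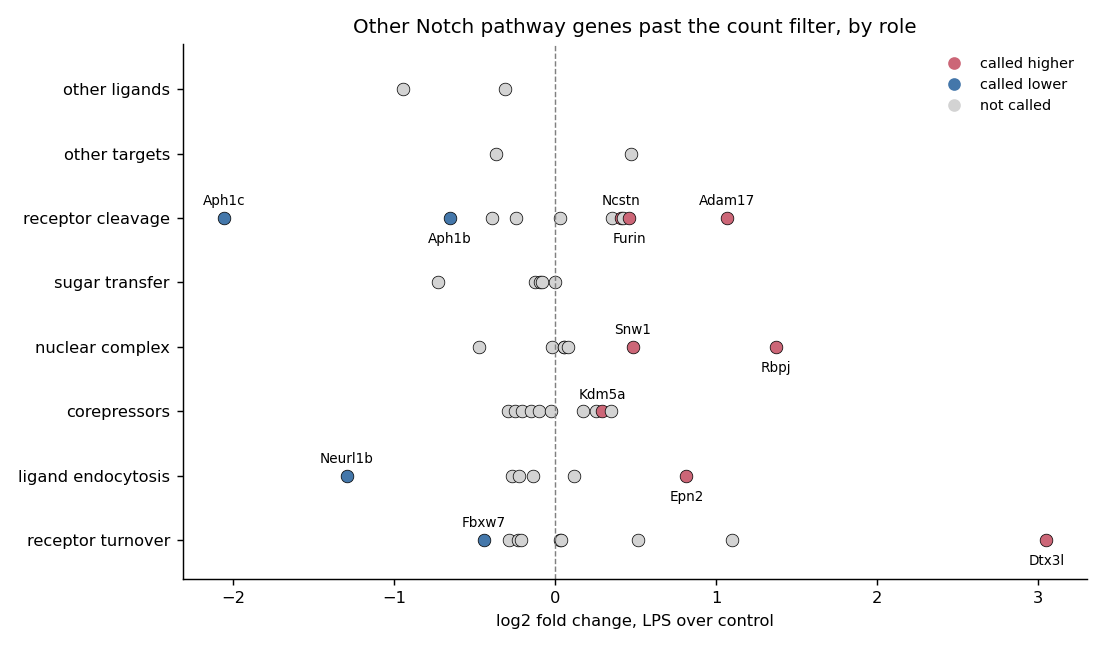
Log2 fold change of LPS over control (horizontal axis) for the 51 other Notch pathway genes past the count filter, 1 point per gene, arranged by role on the vertical axis. Called genes are coloured and named, from Dtx3l at 3.05 and Rbpj at 1.37 on the higher side to Aph1c at -2.06 on the lower side.

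In the nuclear complex, 2 of 7 genes were called higher and 0 lower. Rbpj, the DNA-binding partner of the cleaved receptor, was at 95.9, 111.2 and 135.4 CPM in control replicates 1, 2 and 3 and at 322.5, 324.0 and 238.6 CPM in LPS replicates 1, 2 and 3. All LPS libraries were well above the controls (log2 fold change 1.37, SE 0.18, edgeR adjusted p = 0.00834), though this call did not hold without control replicate 2 (adjusted p = 0.0594). Snw1, which encodes the coregulator SKIP, had a log2 fold change of 0.48 (adjusted p = 0.0140). The coactivators Maml1 and Maml2 had log2 fold changes of 0.08 and 0.05, and Maml3 of -0.48 (adjusted p = 0.0558). Maml3 was called lower with DESeq2, limma-voom, the replicate block, upper-quartile factors and library size alone. It was not called with the remaining scaling, with either filter or in any fit without a single library.

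Among the 10 genes of receptor cleavage, 3 were called higher and 2 lower. Adam17, a sheddase that also releases TNF, was at 113.5, 127.4 and 154.9 CPM in control replicates 1, 2 and 3 and at 250.9, 261.9 and 316.0 CPM in LPS replicates 1, 2 and 3. It rose with a log2 fold change of 1.07 (SE 0.15, edgeR adjusted p = 0.0104), which missed the threshold without control replicate 2 (adjusted p = 0.0659). Adam10, the main protease for ligand-activated Notch, had a log2 fold change of -0.39 (edgeR adjusted p = 0.0504) and was called lower with the replicate block (-0.40, adjusted p = 0.0138). DESeq2, limma-voom, upper-quartile factors, library size alone and at least 10 counts in every library also called Adam10 lower. The remaining scaling and no filter on low counts did not. Of the fits without a single library, only that without LPS replicate 3 called it. Of the gamma-secretase subunits, Ncstn rose by 0.40 on the log2 scale (adjusted p = 0.0146), and Aph1b and Aph1c fell by 0.65 and 2.06 on the log2 scale (adjusted p = 0.0374 and 0.0111). The last 2 are paralogs that share 18.4% of their 50-base words, so counts split between them are uncertain. Furin, which cleaves the receptor during its maturation, had a log2 fold change of 0.46 (adjusted p = 0.0458).

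The remaining calls were spread over the other roles. Dtx3l, a Deltex-family ubiquitin ligase that is also an interferon-induced gene, had the largest change of the 51, from 15.2, 17.0 and 22.0 CPM in control replicates 1, 2 and 3 to 126.2, 139.0 and 183.2 CPM in LPS replicates 1, 2 and 3 (log2 fold change 3.05, SE 0.21, edgeR adjusted p = 0.000987). It was called in all 15 alternatives, and without control replicate 2 it was the only one of the 51 genes called (adjusted p = 0.0138). Fbxw7, which marks the cleaved receptor for degradation, fell by 0.45 (adjusted p = 0.0304), and Neurl1b, a ligase for ligand endocytosis, fell by 1.30 on the log2 scale (adjusted p = 0.0254). Epn2, an endocytic adaptor, rose by 0.81 and Kdm5a, a histone demethylase that acts with RBPJ, by 0.29 on the log2 scale (adjusted p = 0.0284 and 0.0456). None of the 5 genes of sugar transfer, 2 other ligands and 2 other targets tested was called.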

How the data were processed

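Per the labels and the study's text, the authors trimmed reads with cutadapt 1.15, removed contaminant reads with Bowtie2, aligned the rest to GRCm38 with STAR 2.5.2b and listed featureCounts 1.5.3; its strand and multi-mapping settings are not given in the sources used here. Each deposited file held the raw counts of 1 library by gene, without pooling. Here, genes were filtered with filterByExpr (minimum count 10, minimum total 15), scaled with TMM factors (0.917 to 1.08) and compared with the quasi-likelihood F-test of edgeR 4.0.16 in R 4.3.3, two-sided, group as the only term, Benjamini-Hochberg adjustment over all 15226 genes. CPM uses these library sizes. The SE is the absolute log2 fold change divided by the square root of F. Lengths and positions came from GENCODE M21 (GRCm38). Exact permutation tests were two-sided and took all splits of the cultures into 3 against 3, without use of the replicate numbers. On simulated counts for this comparison (196 of 15044 genes changed) the test called 71% of 4-fold and 28.1% of 2-fold changes, and 10.9% of its calls were false.

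The members and gene lists were chosen with earlier results of these data known. All members are named, with the called pathway genes, genes of receptor cleavage, the nuclear complex and other ligands and targets, and a few abundant or absent markers. Alternatives were 3 scalings, 2 filters, DESeq2 1.42.0, limma-voom (limma 3.58.1), the replicate block and each library left out. Samples with the same replicate number deviated together from their group means (r = 0.513, 0.334 and 0.613 across genes for numbers 1, 2 and 3), so the numbers were taken to pair the samples, a pairing that comes from the data and not from the labels. Control 1 correlated with LPS 2 (r = 0.419) and control 2 with LPS 1 (r = 0.323) as well, so that the data separate number 3 from the others more than 1 from 2. PCR copies cannot be recognised in these counts.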

Additional observations from a re-analysis of the deposited data

How the results depend on the processing

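The directions of Notch2, Notch3, Notch4, Jag2, Dll1, Hes1, Hey1 and Heyl were the same in all 15 alternatives. Notch1 turned from 0.24 to -0.50 without LPS replicate 3 and to -0.33 without replicate 3 of both groups (adjusted p = 0.0129), an alternative chosen after seeing the data, and ran from -0.50 to 0.50 without a single library. Jag1 turned positive in 3 fits that left out a library (0.11, 0.17 and 0.13), within a range of -0.62 to 0.17. Over all genes the median log2 fold change was -0.02, but it was -0.12 after upper-quartile scaling and -0.18 when only library size was used, which by construction adds lower calls. Over all genes 1384 were called higher and 1022 lower with TMM factors, 1589 and 2054 lower with these 2 scalings, 2079 higher and 1673 lower with DESeq2, 2343 and 2273 with the replicate block, and 3498 and 3159 without replicate 3 of both groups. Over the fits without a single library, counts ran from 379 to 1964 higher and from 112 to 1426 lower.

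Of the members, 2 were called lower with DESeq2 and after upper-quartile scaling, and 3 with library size alone. Without a single library from 0 to 2 were called higher and from 0 to 3 lower, the 0 in both directions without control replicate 2. Without replicate 3 of both groups 3 were called higher and 5 lower (Dll1 higher, and Jag1, Notch1, Hes1 and Heyl lower, in addition to the calls with all libraries), beside the 43.0% of all genes given above. The replicate block changed no call of a member. Of the other pathway genes, 5 were called higher after upper-quartile scaling and 4 with library size alone, with 7 lower under both scalings and with DESeq2, 8 lower with the replicate block, 14 higher and 10 lower without replicate 3 of both groups, and from 1 to 9 higher and 0 to 7 lower without a single library. The cause of the dependence on single libraries was not tested.

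The order of levels changed for 7 members per coding length and for 7 with no length correction. The Notch3 share differed by -15.6 percentage points with no length correction instead of -19.8, and by -20.8 to -18.8 without a single library. The Notch1 share differed by -1.69 points and turned to 0.26 and 0.56 without LPS replicates 1 and 2, within a range of -5.87 to 0.56. Jag2, Dll1, Hey1 and Notch4 had under 150 counts in every library, where depth limits precision most.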

Other observations

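Other pathway genes shared the split between the libraries numbered 3 and the rest. These genes were picked after their values were seen. Lfng, which encodes the Lunatic fringe sugar transferase, was at 31.4, 40.2 and 59.2 CPM in control replicates 1, 2 and 3 and at 12.5, 13.4 and 53.2 CPM in LPS replicates 1, 2 and 3, the order that Notch1, Jag1 and Heyl had within LPS. Dlk1, a Notch-ligand-like gene of immature mesenchyme, went the other way, with 83.9, 92.5 and 27.9 CPM in control replicates 1, 2 and 3 and 47.7, 46.4 and 12.0 CPM in LPS replicates 1, 2 and 3. Within each number the LPS value of Dlk1 was lower, and it was called with the replicate block (log2 fold change -1.0, adjusted p = 0.00466) but not without it (-0.95, adjusted p = 0.369).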
